A study of Homo sapiens with 6 samples.

Results

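Accessible chromatin was examined at 10 genes that mark epithelial or mesenchymal identity, out of 19974 protein-coding genes on chromosomes 1 to 22 and X. The genes were taken from a list and not picked by their measured values, though earlier results of these data were known at the time. The 5 epithelial genes were CDH1, EPCAM, KRT8, KRT18 and KRT19, and the 5 mesenchymal genes were VIM, CDH2, SNAI2, TWIST1 and ZEB1. All 10 were found by symbol in the RefSeq table of GRCh38. Every peak that touched the gene, or lay within 20 kb of it, was collected. A peak with at least 1 base within 1000 bp of either end of the gene was called a gene-end peak.

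The cells were Huh7, an established human hepatocellular carcinoma line, and all of them lacked their own ARID1A, the large DNA-binding subunit of the BAF (SWI/SNF) chromatin remodelling complex. One group expressed Flag-tagged wild-type ARID1A from a lentivirus (WT), and another the Flag-tagged missense form V2084D. The last expressed V2084D and also carried a knockdown of STUB1, the ubiquitin ligase that works with HSP70 and HSP90 (V2084D shSTUB1). Each of the 3 groups had 2 ATAC-seq libraries, an assay that cuts and tags accessible DNA with a transposase. The titles name no control hairpin and no parental or empty-vector library, so an effect of STUB1 loss cannot be told apart from that of carrying a hairpin. Nothing in the labels says whether the libraries of a group came from separate cultures or clones.

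Epithelial cells are joined by E-cadherin (CDH1) and stiffened by keratin filaments, while mesenchymal cells carry N-cadherin (CDH2) and vimentin (VIM). In the epithelial to mesenchymal transition, the transcription factors of the SNAI, TWIST and ZEB families repress epithelial genes, and SNAI and ZEB factors do so by binding E-boxes in promoters such as that of CDH1. Hepatocytes are epithelial cells whose keratins are KRT8 and KRT18, and KRT19 and EPCAM are better known from bile duct and progenitor cells of the liver.

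The lists differed in depth and length, and this touches every count below. WT replicates 1 and 2 held 9421 and 6743 peaks, V2084D replicates 8428 and 22978, and V2084D shSTUB1 replicates 17588 and 13196. Depth relative to the lowest library, worked out from the deposited fold and p-value of each summit, was 1.01 and 1 for WT, 1.17 and 1.7 for V2084D, and 1.49 and 1.23 for V2084D shSTUB1. The second V2084D library thus stood apart as the deepest library with the longest list, so results that rest on it are also given without it. The median summit rested on 8 to 12 reads and the weakest on 3, so where a peak is missing, accessibility was not detectable at this depth. At ARID1A a gene-end peak was listed in 1 library, V2084D shSTUB1 replicate 2, with a fold of 5.8, and at STUB1 in none. Inside ARID1A, each WT library had 1 peak and the V2084D and V2084D shSTUB1 libraries had 0. The origin of these WT peaks was not tested, so ARID1A and STUB1 check neither the knockout nor the knockdown. Of 14 hepatocyte markers, 1 to 4 had a gene-end peak in a library, and 10 had one in none, among them ALB, AFP and HNF4A. Of all protein-coding genes, 24.2% to 54.7% had one in a library and 41.8% had one in none. Of 14 leukocyte, endothelial, and fibroblast and stellate markers, 4 had a gene-end peak in any library, SPI1, CD68, KDR and COL1A1. Among the hepatocyte markers TF, FOXA1 and FOXA3, and at CD68, an end of another protein-coding gene also lay near a peak.

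Gene-end peaks at the identity genes were few outside V2084D replicate 2. Both WT libraries had 1 of the 10 genes with a gene-end peak, SNAI2 in each, where 32.3% and 24.2% of all protein-coding genes had one. V2084D replicate 1 had 2 of 10, SNAI2 and TWIST1, against 31.1% of all genes. V2084D shSTUB1 replicates 1 and 2 each had 2 of 10, VIM and SNAI2, against 48.1% and 40.6%. V2084D replicate 2 had 8 of 10, all but CDH1 and KRT19, against 54.7% of all genes. For 5 of the 8 (EPCAM, KRT8, KRT18, CDH2 and ZEB1) that library was the only one with a gene-end peak, as it was for 4.83% of all genes. With every list cut to 7234 summits, the count in V2084D replicate 2 was 1, VIM. The other libraries then had 0 or 1, against 24.2% to 26.5% of all genes over the 6 lists.

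**Figure D1:**
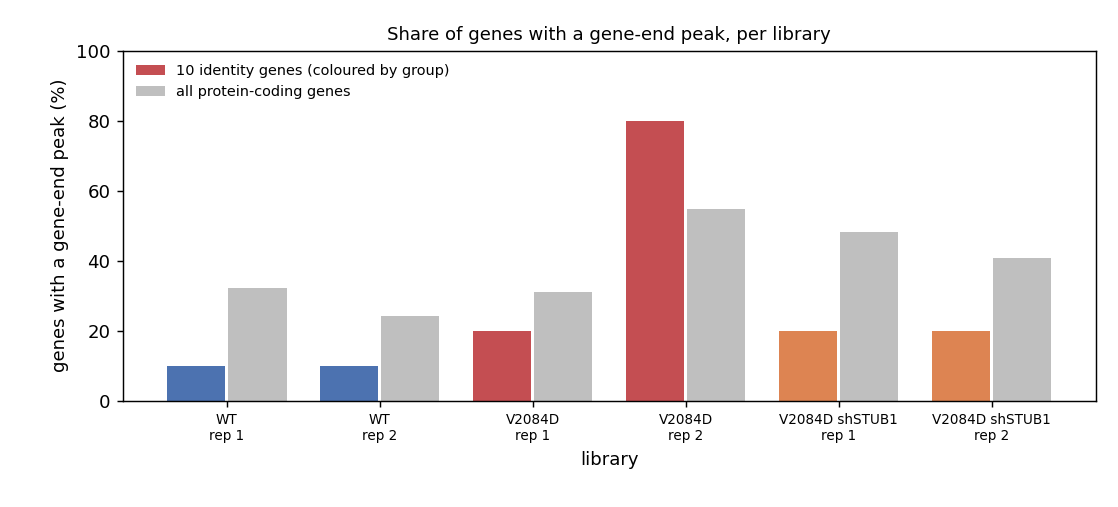
Share of genes with a gene-end peak (y axis, percent) in each of the 6 libraries (x axis), for the 10 identity genes (bars coloured by group) and for all 19974 protein-coding genes (grey bars). The coloured bar is the lower of the pair in 5 libraries, and in V2084D replicate 2 it is the higher, with 8 of 10 genes against 54.7%.

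The peaks were counted once each as 39 peaks within 20 kb of the 10 genes. Of these, 16 lay at an end of a listed gene, and 15 of the 39 came from V2084D replicate 2. Merged over libraries, they formed 20 regions gene by gene, with the regions shared by KRT8 and KRT18 counted for each. Of the 20 regions, 16 had a peak in 1 library alone and 3 in all 6. The constant regions included 1 at SNAI2 and 1 in the flank of CDH1, which lay at an end of the neighbouring gene TANGO6.

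**Figure D2:**
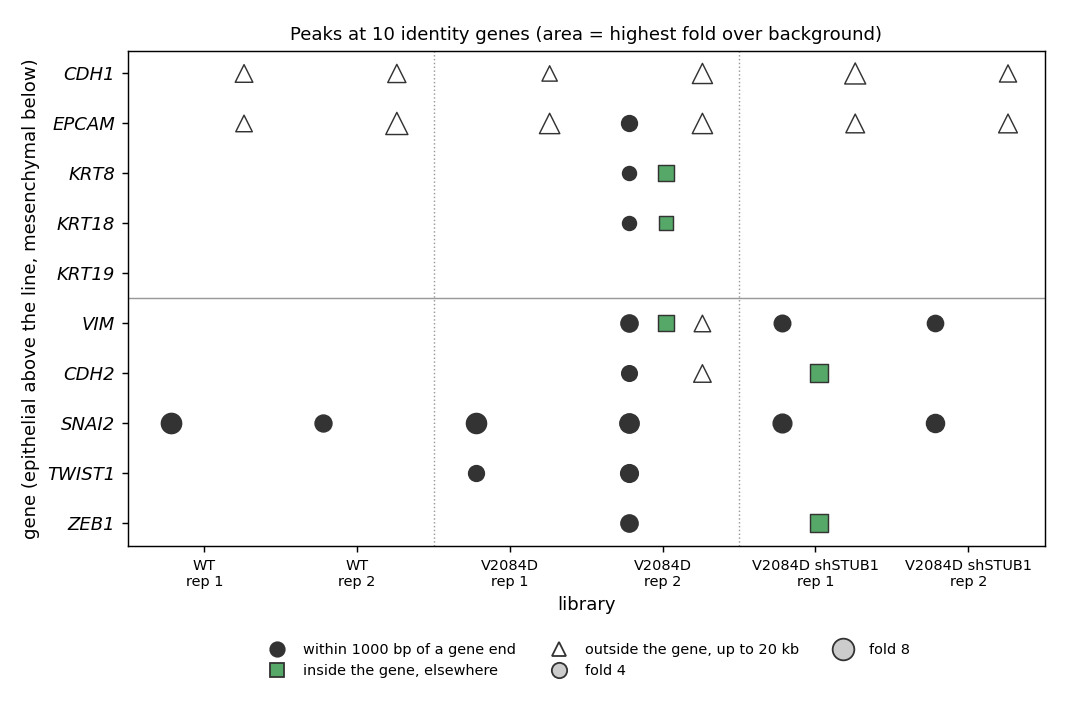
Peaks at each gene (rows) in each library (columns), where circles are gene-end peaks, squares are peaks elsewhere inside the gene and triangles are peaks outside it within 20 kb. Symbol area is proportional to the highest fold over background, which at gene ends ran from 3.33 at KRT18 to 6.99 at SNAI2. Circles fill the SNAI2 row, and those at the epithelial genes are in V2084D replicate 2 alone.

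Among the epithelial genes, CDH1 (chromosome 16, 68737292 to 68835537), which encodes E-cadherin, had no peak at its ends or inside the gene in any library. Its window held a region from 68843415 to 68844368, beyond the high-coordinate end of CDH1 by 7878 bp or more and within 1000 bp of an end of TANGO6, a gene for a protein of transport from the endoplasmic reticulum to the Golgi. The highest folds there were 5.3 and 5.62 for WT replicates 1 and 2, 4.0 and 6.91 for V2084D, and 7.53 and 5.0 for V2084D shSTUB1. That neighbouring region was therefore called in all 6 libraries, at 5 to 13 reads per peak summit, while CDH1 itself was without a peak.

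EPCAM (chromosome 2, 47369311 to 47387020) encodes an epithelial adhesion molecule. Its only gene-end peak, from 47369221 to 47369441 in V2084D replicate 2, had a fold of 4.29, a −log10 q of 2.7 and a summit of 5 reads, 16 bp inside the low-coordinate end. Divided by that library's relative depth, the 5 reads come to 2.95, just under the 3 reads of the weakest summits listed in any library.

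KRT8 (chromosome 12, 52897191 to 52949860) and KRT18 (52948855 to 52952906) encode the keratin pair of simple epithelia, and in RefSeq the high-coordinate end of KRT8 lies inside KRT18. They share 2 peaks, from 52948856 to 52949117 and from 52949873 to 52950171. Both were called in V2084D replicate 2 alone, each with a fold of 3.33, a −log10 q of 1.35 and 5 reads at the summit. These are among the weakest peaks of that list, at the 0.823 percentile of its −log10 q. The first lies at the low-coordinate end of KRT18, just inside the gene, with its summit 208 bp from that end. Inside KRT8 the same library had a peak from 52903813 to 52904022 (fold 4.72, 11 reads) and another from 52904677 to 52904897 (fold 3.63, 8 reads). KRT19 (chromosome 17, 41523617 to 41528308), a keratin of ductal epithelium, had no peak within 20 kb in any library. None of the 5 epithelial genes thus had a gene-end peak outside V2084D replicate 2, and none of these peaks was seen in both libraries of a group.

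SNAI2 (chromosome 8, 48917598 to 48921429) encodes the zinc-finger repressor SLUG, and of the 10 it alone had a gene-end peak in every library as deposited. With lists of equal length, SNAI2 had no gene-end peak in V2084D replicate 2 or V2084D shSTUB1 replicate 1. With a −log10 q of at least 5, it had none in WT replicate 2 or V2084D shSTUB1 replicate 2. The peaks lay at its high-coordinate end, which is where this minus-strand gene starts, and they also lay near an end of the uncharacterised locus LOC107986942. In WT the strongest summits had folds of 6.99 and 4.88 in replicates 1 and 2, with −log10 q of 6.88 and 2.93 and 12 and 7 reads. In V2084D the folds were 6.91 and 6.39, with −log10 q of 6.53 and 8.07 and 12 and 16 reads. In V2084D shSTUB1 they were 5.96 and 5.56, with −log10 q of 5.9 and 4.87 and 12 and 11 reads. The WT libraries were the highest and the lowest of the 6 by fold, so WT overlapped each other group, while both V2084D folds lay above both V2084D shSTUB1 folds. Beside these folds, V2084D replicate 2 was the deepest library, and the difference was not tested.

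All 6 SNAI2 peaks shared a stretch of 200 bp, from 48921597 to 48921796. Their widths ran from 380 bp in WT replicate 2 to 756 bp in V2084D replicate 2. The strongest summit lay outside the gene in every library, at signed distances of -51 to -554 bp from its end (negative is outside), and at a different point in each. Within a group the overlap was 52.6% of the shorter peak in WT and 100% in V2084D and V2084D shSTUB1. Per unit of relative depth the summits held 11.8 and 7 reads for WT, 10.3 and 9.44 for V2084D, and 8.05 and 8.93 for V2084D shSTUB1, so WT again spanned both other groups, and both V2084D values lay above both V2084D shSTUB1 values. The peak stood at the 26.2 to 86.7 percentile of −log10 q within its list, so it was neither among the weakest nor the strongest called. Over all genes, 15.8% had a gene-end peak in each of the 6 libraries.

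VIM (chromosome 10, 17228241 to 17237593) encodes vimentin, the intermediate filament protein of mesenchymal cells. A gene-end peak was called in V2084D replicate 2 and in both V2084D shSTUB1 libraries, and in neither WT library nor V2084D replicate 1. The folds were 5.05 in V2084D replicate 2, and 4.67 and 4.49 in V2084D shSTUB1 replicates 1 and 2. Their −log10 q was 9.4, 5.97 and 3.92, and the summits held 27, 19 and 13 reads. The 3 peaks shared 294 bp, from 17228294 to 17228587, which is the whole of the shortest peak, and their summits lay 246 to 297 bp inside the gene. Divided by relative depth, the summits held 15.9, 12.8 and 10.6 reads, beside 7 to 11.8 at SNAI2 and under 9 at every other gene-end peak of the 10 genes.

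Local background at VIM was also high, at 4.54, 3.28 and 2.12 reads, which was 3.66, 3.28 and 2.52 times the median background of all summits of the same library. The fold at VIM is thus taken over a high level of surrounding reads. In the WT lists, summits whose background lay in the range of VIM after scaling to the lowest depth (1.72 to 2.68 reads) numbered 312 and 179, and the fewest reads at any of them was 9 in each library. Whether VIM in WT or V2084D replicate 1 lay just under the level needed for a call was not tested. V2084D replicate 2 had a further peak inside VIM, from 17230054 to 17230656 (fold 4.32, 23 reads), and another 1362 bp beyond its high-coordinate end (fold 4.65, 7 reads). The antisense gene VIM-AS1 overlaps the start of VIM, so the gene-end peaks cannot be assigned to either gene.

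CDH2 (chromosome 18, 27932879 to 28177130) encodes N-cadherin. V2084D replicate 2 had a peak from 28175946 to 28176328 (fold 4.17, −log10 q 4.05, 14 reads), of which an edge reached the 1000 bp window while its summit lay 1123 bp inside the gene. V2084D shSTUB1 replicate 1 had a peak further inside, from 28167778 to 28168079 (fold 5.86, −log10 q 5.4, 6 reads), 7866 bp from the first. V2084D replicate 2 also had a peak 10519 bp beyond the far end of CDH2, at an end of CDH2-AS1 (fold 5.22, 6 reads). No CDH2 peak was shared by any pair of libraries.

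TWIST1 (chromosome 7, 19113047 to 19117636) encodes a basic helix-loop-helix factor that drives the mesenchymal state. A gene-end peak was called in V2084D replicates 1 and 2 and in none of the other 4 libraries. The folds were 4.27 and 5.34 in replicates 1 and 2, with −log10 q of 2.13 and 4.75 and 6 and 10 reads at the summit. The peaks did not overlap: that of replicate 1 ran from 19117478 to 19117677, across the high-coordinate end of the gene, and that of replicate 2 from 19116458 to 19116986, 491 bp away inside it. They stood at the 11.6 and 45.8 percentile of −log10 q in their lists. With a gene-end window of 500 bp in place of 1000 bp, replicate 2 no longer had a gene-end peak and TWIST1 was no longer called in both.

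ZEB1 (chromosome 10, 31318417 to 31529804) encodes a zinc-finger E-box repressor. V2084D replicate 2 had a peak from 31319382 to 31319673 (fold 5.08, −log10 q 4.64, 11 reads), with its summit 1105 bp inside the low-coordinate end. V2084D shSTUB1 replicate 1 had a peak 1094 bp further in, from 31320768 to 31320967 (fold 5.29, −log10 q 4.09, 8 reads). RefSeq places several ZEB1 start sites in this stretch. The peak of V2084D replicate 2 lay 95 bp from the start site at 31319768 and overlapped the promoter window of that site by 156 bp. The peak of V2084D shSTUB1 replicate 1 lay 214 bp from the site at 31320554 and overlapped the window of the next site by 17 bp. Both therefore lay among the starts of ZEB1 transcripts, although the second was not within 1000 bp of the gene end, and ZEB1-AS1 has an end nearby as well.

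**Figure D3:**
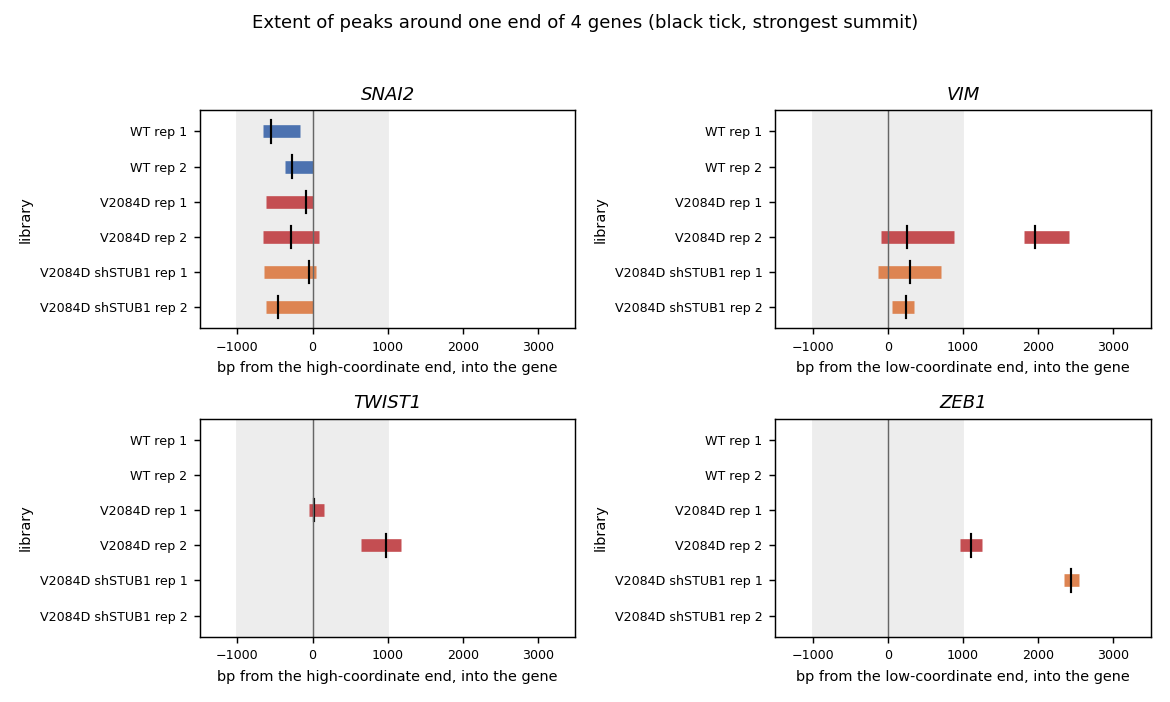
Peaks around an end of SNAI2, VIM, TWIST1 and ZEB1, with distance from that end into the gene on the x axis (bp, negative outside the gene) and the 6 libraries as rows. Bars are peaks coloured by group, black ticks are their strongest summits and the grey band is the gene-end window of 1000 bp. The SNAI2 bars overlap in all 6 rows and the VIM bars in 3, whereas those at TWIST1 lie 491 bp apart and those at ZEB1 1094 bp apart.

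The RefSeq promoter table (GRCh38.p14) had entries for 4 of the 10 genes, VIM, ZEB1, CDH2 and KRT8. The 250 bases before the outermost start of the 3 mesenchymal genes are printed because a peak lay at or near each of these starts. Each is written 5′ to 3′ on the strand of the gene. Capitals mark the GC box GGGCGG and the E-box CACCTG, which SNAI and ZEB factors bind, on either strand.
VIM (chr10:17227991-17228240, plus strand): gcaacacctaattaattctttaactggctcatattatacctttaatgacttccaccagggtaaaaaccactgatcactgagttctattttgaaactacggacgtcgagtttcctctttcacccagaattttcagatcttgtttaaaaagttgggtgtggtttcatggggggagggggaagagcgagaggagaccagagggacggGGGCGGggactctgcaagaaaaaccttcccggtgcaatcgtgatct
ZEB1 (chr10:31318167-31318416, plus strand): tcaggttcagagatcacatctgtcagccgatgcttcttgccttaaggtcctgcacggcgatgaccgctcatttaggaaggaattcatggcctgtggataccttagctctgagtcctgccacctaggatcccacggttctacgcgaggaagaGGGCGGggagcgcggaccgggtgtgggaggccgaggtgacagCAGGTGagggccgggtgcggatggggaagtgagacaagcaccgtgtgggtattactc
CDH2 (chr18:28177131-28177380, minus strand): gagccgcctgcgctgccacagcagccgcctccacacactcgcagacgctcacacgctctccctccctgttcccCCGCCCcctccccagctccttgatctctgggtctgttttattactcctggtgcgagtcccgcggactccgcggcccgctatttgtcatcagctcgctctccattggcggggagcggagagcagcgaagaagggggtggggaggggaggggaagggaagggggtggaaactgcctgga

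Each of the 3 sequences held the GC box once, as did 42.7% of 34961 windows of the same length in the table at least once. The E-box CACCTG was in the ZEB1 sequence alone of the 3, as it was in 17.5% of all windows. A looser E-box, CANNTG, which includes the first, had 2 matches at ZEB1 and none at VIM or CDH2, against 61.8% of windows with at least 1. The AP-1 motif TGANTCA had no match in the 3 sequences and was in 6.54% of windows. CG pairs numbered 8 at VIM, 15 at ZEB1 and 17 at CDH2, beside a median of 11. The peaks at VIM reached into the printed bases in V2084D replicate 2 and V2084D shSTUB1 replicate 1, while that of V2084D shSTUB1 replicate 2 began 53 bp after the start site. The nearest peak of V2084D replicate 2 lay 965 bp from the ZEB1 start and 802 bp from the CDH2 start, so these letters lay outside it.

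The first comparison, WT against V2084D, addresses whether accessibility at these genes differs between cells given wild-type ARID1A and cells given the missense form. A gene was counted for a group when each of its replicates had a gene-end peak and no replicate of the other group had any. TWIST1 was the 1 gene of 10 counted for V2084D, beside 5.07% of all protein-coding genes. None of the 10 was counted for WT, beside 0.0501% of all genes. With any peak within 20 kb, the gene in the V2084D direction was again TWIST1, beside 5.81% of all genes, and there was none in the WT direction, beside 0.0751%. No test was attached: 2 against 2 libraries cannot give a two-sided exact permutation p below 0.333. Without V2084D replicate 1, the count in the V2084D direction was 7, namely EPCAM, KRT8, KRT18, VIM, CDH2, TWIST1 and ZEB1, beside 18.9% of all genes. Without V2084D replicate 2 it was 1, TWIST1, beside 5.52%.

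The second comparison set V2084D against V2084D shSTUB1, cells that differ in the hairpin, and it shares the V2084D libraries with the first. TWIST1 was again the 1 gene counted for V2084D, beside 0.656% of all genes. With any peak within 20 kb it was also TWIST1, beside 0.636%. In the opposite direction there was no gene of the 10 by either rule, beside 0.365% and 0.386% of all genes. Without V2084D replicate 1 the V2084D direction held 6 genes (EPCAM, KRT8, KRT18, CDH2, TWIST1 and ZEB1), beside 6.24% of all genes. Without V2084D replicate 2, VIM was the 1 gene counted for V2084D shSTUB1, beside 10.8%.

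The last comparison, of the knockdown cells with WT, shares libraries with the first and the second. VIM was the 1 gene of 10 counted for V2084D shSTUB1, beside 7.07% of all genes, and its peaks overlapped by 294 bp. By any peak within 20 kb it was also VIM, beside 8.41%. No gene of the 10 was counted for WT by either rule, beside 0.135% and 0.16% of all genes. VIM was still counted when either WT or either V2084D shSTUB1 library was left out. With a −log10 q of at least 5, or with lists of equal length, VIM kept a gene-end peak in at most 1 of the V2084D shSTUB1 libraries and the count was 0.

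The wider epithelial and mesenchymal programme was read from 109 further genes in 5 lists. Of these, 22 and 13 had a gene-end peak in WT replicates 1 and 2, 23 and 51 in the V2084D replicates, and 41 and 20 in those of V2084D shSTUB1, and 55 had one in no library. As shares these were 20.2% and 11.9%, 21.1% and 46.8%, and 37.6% and 18.3%. Each was below the share of all protein-coding genes in the same library. Against WT, 6 of the 109 were counted for V2084D, beside 5.07% of all genes, and none for WT. Against V2084D shSTUB1, 1 gene was counted for V2084D, beside 0.656%, and none for V2084D shSTUB1. Between WT and V2084D shSTUB1, 5 genes were counted for V2084D shSTUB1, beside 7.07%, and 1 for WT, beside 0.135%. Without V2084D replicate 1, the count for V2084D against WT was 26, beside 18.9% of all genes. Without V2084D shSTUB1 replicate 2, that for V2084D shSTUB1 against WT was 17, beside 13.8% of all genes.

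Epithelial junction genes had a gene-end peak at 6 and 5 of 25 genes for WT, 10 and 17 for V2084D, and 12 and 9 for V2084D shSTUB1. As shares these were 24% and 20%, 40% and 68%, and 48% and 36%, beside 32.3% and 24.2%, 31.1% and 54.7%, and 48.1% and 40.6% of all protein-coding genes. The list had the highest share of the 5 in every library but WT replicate 1. Against WT, 4 of the 25 were counted for V2084D, beside 5.07% of all genes. DSP, the desmoplakin gene, had folds of 4.35 and 5.9 in V2084D replicates 1 and 2, in peaks 125 bp apart. DSG2, a desmosomal cadherin gene, had folds of 6.49 and 6.19, in peaks that overlapped by 170 bp. DSC2, another desmosomal cadherin gene, had folds of 4.65 and 4.79 with an overlap of 203 bp, and was also the 1 gene counted for V2084D against V2084D shSTUB1. PKP2, the plakophilin gene, had folds of 5.41 and 4.93 in peaks 539 bp apart. DSP and DSG2 were also counted for V2084D shSTUB1 against WT, with folds of 5.28 and 5.83 at DSP and 6.77 and 5.33 at DSG2. LSR, a gene of tricellular junctions, and JUP, the plakoglobin gene, had peaks in all 6 libraries, with folds of 6.37 to 9.13 and 5.26 to 7.41. Of 5 claudin genes, which form tight junctions, CLDN1 alone had a gene-end peak in any library.

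Among keratins and epithelial surface genes, 2 or 3 of 16 had a gene-end peak in each library. As shares these were 12.5% to 18.8%, beside 24.2% to 54.7% of all protein-coding genes. ERBB3, a receptor tyrosine kinase gene, had one in all 6, with folds of 6.18 to 10.1, at peaks that also touched an end of PA2G4. All 7 further keratin genes on the list were without a gene-end peak in every library, as KRT19 was. Epithelial regulators had a gene-end peak at 0 to 3 of 13 genes per library, and none was counted for a group in any comparison. Their shares, 0% to 23.1%, were each below that of all protein-coding genes in the same library.

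Mesenchymal adhesion, cytoskeleton and matrix genes had a gene-end peak at 9 and 5 of 35 genes for WT, 6 and 19 for V2084D, and 15 and 7 for V2084D shSTUB1. As shares these were 25.7% and 14.3%, 17.1% and 54.3%, and 42.9% and 20%, each below that of all protein-coding genes in the same library. THBS1, the thrombospondin gene, was counted for V2084D against WT, with folds of 3.66 and 7.21, and a fold of 5.75 in V2084D shSTUB1 replicate 1. Its peak in V2084D replicate 1 had a −log10 q of 1.38, and an end of LOC124903470 also lay near a peak at THBS1. AXL, a receptor tyrosine kinase gene, and TPM2, a tropomyosin gene, were counted for V2084D shSTUB1 against WT. Folds were 4.55 and 6.25 at AXL, in peaks 43295 bp apart, and 4.46 and 5.1 at TPM2. ITGB1, the integrin beta subunit gene, was counted for WT against V2084D shSTUB1, with folds of 4.23 and 4.73 in WT and 3.4 in V2084D replicate 2. COL5A2 and COL1A1, both collagen genes, had peaks in all 6 libraries, with folds of 4.22 to 10.6 and 4.0 to 7.22. Those at COL5A2 also lay near an end of WDR75. An end of HNRNPUL1 also lay near a peak at AXL. The V2084D shSTUB1 peaks stood at opposite ends of AXL, so a single end of HNRNPUL1 lay near 1 of them at most.

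Mesenchymal regulators had a gene-end peak at 3 and 0 of 20 genes for WT, 2 and 9 for V2084D, and 9 and 2 for V2084D shSTUB1. As shares these were 15% and 0%, 10% and 45%, and 45% and 10%. Each was below the share of all protein-coding genes in the same library, and none of the 20 was counted for a group in any comparison. Of the 4 paralogs of SNAI2, TWIST1 and ZEB1 on the list, SNAI1 had a peak in V2084D replicate 2 (fold 3.98) and V2084D shSTUB1 replicate 1 (fold 4.94), and SNAI3 in the latter alone. TWIST2 and ZEB2 were without a gene-end peak in all 6 libraries.

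**Figure D4:**
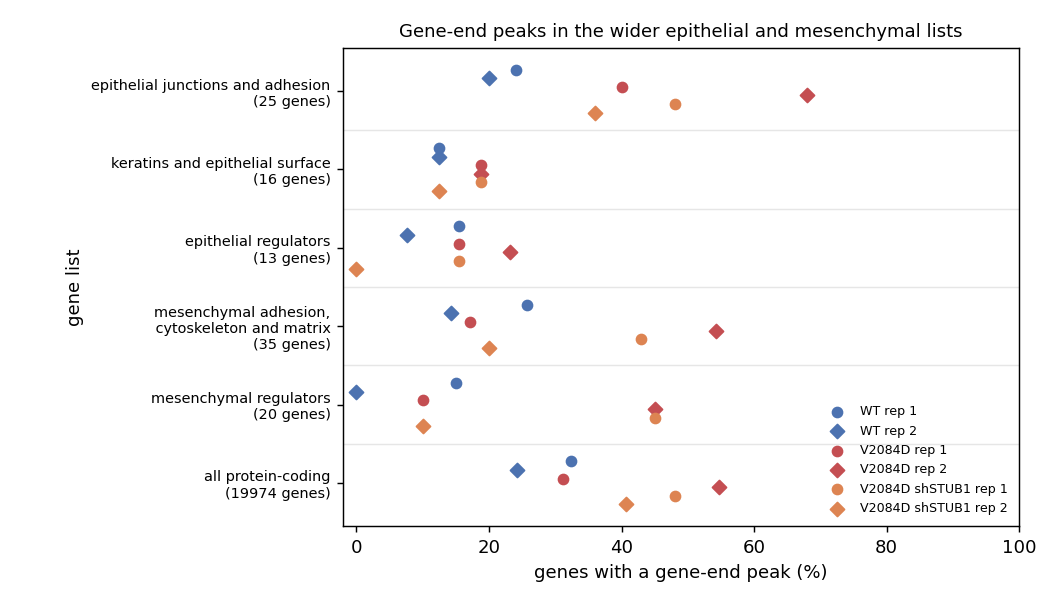
Share of genes with a gene-end peak (x axis, percent) in 5 lists of further epithelial and mesenchymal genes and in all protein-coding genes (rows), with 1 point per library coloured by group (circles replicate 1, diamonds replicate 2). In the mesenchymal lists the points of V2084D replicate 2 and V2084D shSTUB1 replicate 1 lie apart from the other 4. These are the deepest libraries (relative depth 1.7 and 1.49), and they also have the highest shares of all protein-coding genes, 54.7% and 48.1%. The keratin row stays at 12.5% to 18.8%.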

How the data were processed

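The authors called peaks in each library separately, and each deposited list has 1 line per summit, so a long peak has several lines. The submitters' processing notes name MACS2, Bowtie2, Trimmomatic, Picard, SAMtools, deepTools and bedtools, with hg38 as the build. For these tools, versions, settings and any Tn5 correction were not given in the sources used here. Each line gives the authors' deposited fold (a ratio over local background), −log10 p-value and −log10 q-value, and a score that equals the whole part of 10 times −log10 q. They are ranked here within a list. Where folds are set side by side across libraries, as at SNAI2, the libraries also differ in depth, and the differences were not tested.

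Chromosomes 1 to 22 and X were kept, which left out 2.07% to 2.6% of summits. Each interval counted as 1 peak with its strongest summit. Reads at a summit were worked out from fold and p-value, taking the Poisson p of MACS2 and a pseudocount of 1, and came out whole for 100% of summits within 0.001 in −log10 p. The lowest background in a library gave its relative depth. Gene positions came from RefSeq (GRCh38.p14). Strand came from its promoter table, or for other genes from textbook knowledge, and exons were not used here. Counting and read recovery were tested on simulated data. Work was done in Python 3.11.15 with pandas 2.3.3, numpy 2.4.6, scipy 1.17.1 and matplotlib 3.10.9.

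The 10 genes, the lists and the comparisons were chosen with earlier results of these data known. The text names all 10 genes, list genes counted for a group (1 is not reported here by name, nor is 1 neighbouring region, though counts and the plot of peaks include them), up to 3 per list with a peak in all 6 libraries (by mean percentile of −log10 q), ARID1A and STUB1. Claudins, keratins, paralogs and the markers named were added after their values were seen. The alternatives raised the −log10 q minimum to 5, cut every list to 7234 summits, changed the windows and reaches, asked for an overlap between the libraries of a group, or left out each library in turn. A further one, asking for a summit within 1000 bp of a gene end, was chosen after seeing the data.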

Additional observations from a re-analysis of the deposited data

How the results depend on the processing

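Depth and list length limit these counts, and values follow library order: WT 1, WT 2, V2084D 1, V2084D 2, V2084D shSTUB1 1, V2084D shSTUB1 2. The 10 genes had gene-end peaks at 1, 1, 2, 8, 2 and 2. A −log10 q of at least 5 gave 1, 0, 1, 2, 2 and 0, and equal list lengths gave 1, 1, 1, 1, 0 and 1. With that −log10 q, the share of all protein-coding genes ran from 9.92% in WT 2 to 41.4% in V2084D 2. With equal lengths it ran from 24.2% in WT 2 to 26.5% in V2084D 1. Counting only the end where the gene starts by strand, for the 4 genes with a strand in the table, gave 0, 0, 0, 4, 1 and 1. Of 15813 genes with a strand, 33.6%, 25.3%, 32.1%, 55.7%, 49.3% and 41.7% had one. KRT8 was counted in V2084D 2 by the outer end of the gene. The start site at 52926469 in its promoter entry lay 21572 bp from the nearest peak of that library. A window of 500 bp gave 5 in V2084D 2. Asking for a summit within 1000 bp of the end gave 6 in V2084D 2, where CDH2 and ZEB1 were no longer counted. Any peak within 20 kb was found at 3, 3, 4, 9, 6 and 4 genes. A −log10 q of at least 5 moved this to 1, 1, 2 and 4 in the first 4 libraries and 1 in the last. Equal list lengths moved V2084D to 2 and 2 and V2084D shSTUB1 to 1 and 2. The gene body alone moved WT to 0 and 1, V2084D 1 to 2 and V2084D shSTUB1 2 to 2, and a reach of 50 kb moved WT 1 to 5.

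The gene-end count for V2084D, 1 against WT and 1 against V2084D shSTUB1, fell to 0 in both comparisons with a −log10 q of at least 5, with equal lengths, with a window of 500 bp, and where the peaks of a group had to overlap by 1 bp or by 50% of the shorter. The count for V2084D shSTUB1 against WT fell from 1 to 0 with a −log10 q of at least 5 and with equal lengths, and remained 1 under the overlap rules. Within 20 kb, these 3 counts of 1 each fell to 0 with a −log10 q of at least 5 and with equal lengths, and that for V2084D shSTUB1 against WT also with a reach of 50 kb. Equal lengths gave 1 gene for WT against V2084D, CDH1, beside 2.41% of all genes, through the peaks at the end of TANGO6. Among the 109 further genes, equal lengths moved V2084D against WT from 6 to 0 and V2084D shSTUB1 against WT from 5 to 1. A −log10 q of at least 5 moved V2084D against V2084D shSTUB1, and WT against V2084D shSTUB1, from 1 to 0. A window of 500 bp moved V2084D against V2084D shSTUB1 from 1 to 2 and the reverse from 0 to 1.

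Leaving out each library in turn, the gene-end count ran from 1 to 7 for V2084D against WT, 1 to 6 for V2084D against V2084D shSTUB1, 0 to 1 for the reverse and 1 to 1 for V2084D shSTUB1 against WT. Within 20 kb these ran from 1 to 6, 1 to 3, 0 to 1 and 1 to 3. The counts for WT were 0 throughout. Among the further genes the range was 0 to 3 for WT against V2084D, 6 to 26 for the reverse, 1 to 11 for V2084D against V2084D shSTUB1, 0 to 4 for the reverse, 1 to 3 for WT against V2084D shSTUB1 and 6 to 17 for the reverse. The highest value for V2084D came without V2084D 1 in each of these ranges. That for V2084D shSTUB1 against V2084D came without V2084D 2 in each, and the 3 and 17 against WT without V2084D shSTUB1 2. Beside the 26, 11, 4 and 17 among the further genes, the shares of all genes were 18.9%, 6.24%, 10.8% and 13.8%. For WT among the further genes, the 3 against V2084D came without V2084D 2, beside 3.49% of all genes. The 3 against V2084D shSTUB1 came without V2084D shSTUB1 1, beside 0.981%. Other shifts by over 1.5 times among the further genes are given with the share of all genes. For V2084D they were 15 against WT without WT 1 (12.0%) and 8 against V2084D shSTUB1 without V2084D shSTUB1 1 (3.32%). For V2084D shSTUB1 they were 10 and 8 against WT without WT 1 and WT 2 (15.8% and 9.98%). Against V2084D, V2084D shSTUB1 had 2 without V2084D shSTUB1 2 (2.05%). For WT, leaving out WT 1 gave 1 against V2084D (0.245%) and 2 against V2084D shSTUB1 (0.496%). Under the alternatives 153 values stayed within 1.5 times the reported count and 75 did not. The causes were not tested, beyond the fewer peaks that the stricter settings leave. No paired analysis was possible because the counts come from no fitted test, and a gene called in each replicate of a group and in none of the other is the same whichever replicates are paired.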

Other observations

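The desmosome genes on the junction list, a group chosen after the values were seen, had gene-end peaks at 1 of 6 genes for each WT library, 5 for each V2084D library, and 4 and 3 for V2084D shSTUB1 replicates 1 and 2. In library order, 32.3%, 24.2%, 31.1%, 54.7%, 48.1% and 40.6% of all protein-coding genes had one. JUP was the gene called in WT, and DSP, DSG2, DSC2 and PKP2 were added in V2084D. With lists of equal length the counts were 1 and 1 for WT, 5 and 1 for V2084D, and 2 and 1 for V2084D shSTUB1. Keeping peaks whose −log10 q reached 5 gave 1 and 1, 1 and 3, and 2 and 1, so the agreement between the V2084D libraries did not hold under either setting.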
